A study of Homo sapiens with 12 samples.

Results

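The mRNAs of 10 secreted inflammatory proteins were followed in A375 cells, an established BRAF-mutated human skin melanoma line. The members were picked by symbol as the neutrophil-attracting chemokines CXCL8, CXCL1, CXCL2 and CXCL3, the monocyte-attracting chemokine CCL2, the IL-1 cytokines IL1A and IL1B, and the gp130 cytokines IL6, IL11 and LIF. They are 10 of the 44659 genes in the table of raw read counts, each with 1 row. RNA from 12 libraries was sequenced after rRNA depletion, with 3 libraries in each of 4 groups. MAPKi cells received 500 nM vemurafenib, a BRAF inhibitor, with 500 nM cobimetinib, a MEK inhibitor, for 24 h, and were compared with DMSO cells. Gln-depleted cells were kept without glutamine (Gln) for 24 h and were compared with CTRL cells in medium with 2 mM Gln. The MAPKi experiment was sequenced in batch 2 and the Gln experiment in batch 1, so that levels set across the experiments cannot be told apart from the batch. Replicate 1 of the Gln experiment came from experimental batch 1 and replicates 2 and 3 from experimental batch 2. The labels do not say whether replicates were separate cultures, so p-values measure the spread between these libraries. All libraries are of 1 cell line, and fewer expressing cells and less RNA per cell cannot be told apart in bulk RNA.

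Chemokines are small secreted proteins that draw leukocytes along a gradient. CXCL8 (interleukin-8) and the closely related CXCL1, CXCL2 and CXCL3 act on the receptor CXCR2 of neutrophils, and CXCL8 also on CXCR1, while CCL2 acts on CCR2 of monocytes. IL-1α and IL-1β signal through IL1R1 and its partner IL1RAP to NF-κB. IL-6, IL-11 and LIF share the signalling receptor gp130, encoded by IL6ST, which they engage together with IL6R, IL11RA or LIFR and which activates JAK kinases and STAT3. Genes of this kind are known to be controlled by NF-κB, AP-1 and C/EBP factors, and their mRNAs by proteins that bind AU-rich elements.

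The stretches before the start of CXCL8, IL11 and CXCL1 show how the recognition letters of such factors are arranged in 3 members whose mRNA levels behaved differently. They are from RefSeq, build GRCh38.p14, written 5′ to 3′ on the strand of the gene, and their capitals mark AP-1 letters (TGANTCA) in CXCL8 and IL11 and the NF-κB consensus in CXCL1. The CXCL8 stretch is chr4:73740319-73740518 on the plus strand, which ends where the GENCODE gene model begins, 50 bases before the RefSeq start. That of IL11 is chr19:55370464-55370713 on the minus strand and that of CXCL1 the last 100 bases before its start, chr4:73869293-73869392 on the plus strand.
CXCL8: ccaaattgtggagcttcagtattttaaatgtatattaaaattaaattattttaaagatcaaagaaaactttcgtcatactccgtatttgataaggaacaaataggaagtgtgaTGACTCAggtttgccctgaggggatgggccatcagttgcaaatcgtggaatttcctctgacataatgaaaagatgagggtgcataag
IL11: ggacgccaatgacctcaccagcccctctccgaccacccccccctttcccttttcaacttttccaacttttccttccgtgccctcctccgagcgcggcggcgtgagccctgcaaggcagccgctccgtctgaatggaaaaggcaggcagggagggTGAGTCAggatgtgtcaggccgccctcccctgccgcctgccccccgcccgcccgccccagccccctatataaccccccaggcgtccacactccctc
CXCL1: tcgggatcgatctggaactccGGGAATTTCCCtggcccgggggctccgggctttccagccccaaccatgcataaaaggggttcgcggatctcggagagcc

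In the 250 bases before each RefSeq start, available for 8 of the 10 members (not LIF or CCL2), the AP-1 letters began at position -137 of CXCL8 and -96 of IL11 and were also found for IL1A. They occurred in 6.57% of 35116 promoters. The NF-κB consensus was found at -79 of CXCL1, -78 of CXCL2, -79 of CXCL3 and -73 of IL6, and occurred in 5.21% of promoters. It overlapped none of the other motifs searched. Only exact matches were counted. The CXCL8 stretch holds ggaatttcct, which differs from the GGAATTTCCC of CXCL1 in its last base and was not counted. A TATA box (TATAAA, searched on the strand of the gene) began at -31 of CXCL8 and at -239 in 1 of the 2 windows of IL1A, and occurred in 6.8% of promoters. The letters TGATGNAA of the joint C/EBP-ATF response element and TGACGTCA of the cyclic AMP response element were searched on both strands. They were in none of the 9 windows of these members (IL1A has 2) and in 3.14% and 1.65% of promoters. Letters of C/EBP factors alone were not searched. Such matches describe the sequence and do not show that a factor was bound, and a missing match does not show that a site is absent. A link between these letters and the mRNA levels was not tested.

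Most of the 10 mRNAs were rare in A375 cells. Between 31056296 and 40071368 reads were counted per library, and only 7 members had more than 3 reads in any of the 12 libraries (all but CCL2, IL1A and IL1B). A count of 3 reads in a library, the limit that a count of 0 allows, corresponds to between 0.0746 and 0.0985 CPM, TMM-scaled over the 12 libraries. CPM are reads in a library scaled to 1000000 reads by TMM, which adjusts for depth and composition. The CPM of single genes given below were scaled within each experiment. LIF was the most abundant member per length in every group (CPM divided by kilobases of exon, TMM-scaled over the 12 libraries), with 1.19 ± 0.0373 in MAPKi, 14.3 ± 1.42 in DMSO, 30.9 ± 7.17 in CTRL and 136 ± 51.0 in Gln-depleted cells (SD, n = 3). In CTRL cells it was followed by CXCL1 (0.607 ± 0.0812) and CXCL8 (0.467 ± 0.161), whose ranges overlapped, and by IL11 (0.113 ± 0.0259). Exons were merged over all GENCODE transcripts, to 1362 bases for CXCL1 and 2588 for CXCL8. Their main transcripts have 1174 and 1642 bases, and the order of CXCL1 and CXCL8 in CTRL cells depends on the length used. In Gln-depleted cells the second place was taken by IL11 (13.1 ± 9.58 on the same scale), above CXCL8 (1.37 ± 0.702) and CXCL1 (0.518 ± 0.118), with no overlap between neighbours in this order.

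**Figure D1:**
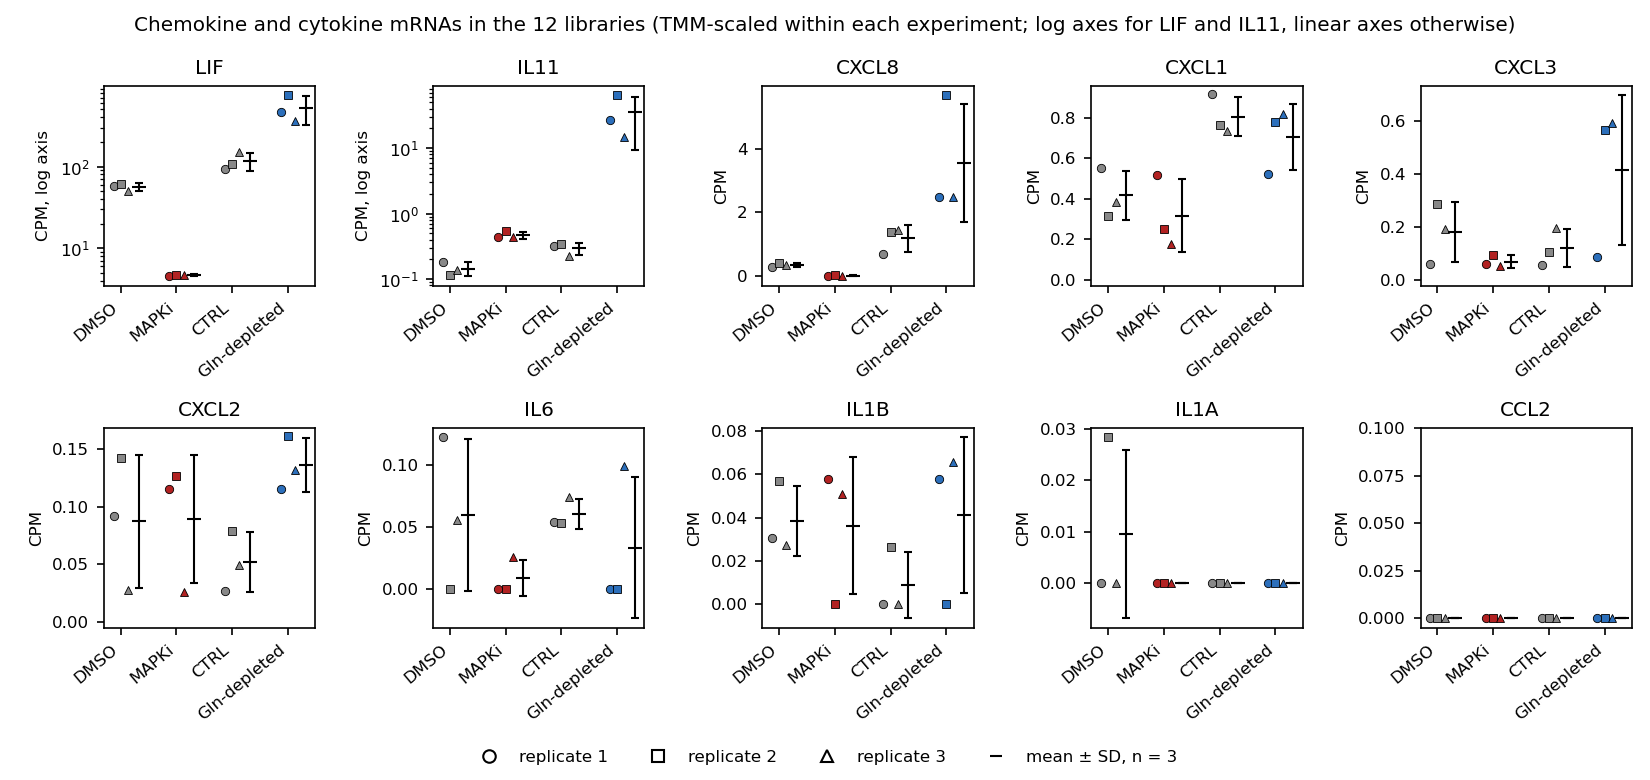
TMM-scaled CPM of each of the 10 mRNAs (y axis; log axes for LIF and IL11, linear otherwise) in the DMSO, MAPKi, CTRL and Gln-depleted groups (x axis). Each symbol is 1 library, with its shape giving the replicate number, and the bar beside it is the mean ± SD of 3 libraries. LIF is lowest in MAPKi cells and highest in Gln-depleted cells, IL11 reaches 14.9 to 64.4 CPM in Gln-depleted cells, and no read was counted for CCL2.

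Genes were called lower or higher where their change was larger than 1.5-fold by edgeR's quasi-likelihood test with p-values adjusted after Benjamini and Hochberg over every tested gene and a limit of 0.05, and a gene was tested if its mean normalised count was at least 10. Of the 10 members, 3 were tested in the MAPKi experiment (LIF, IL11 and CXCL1), of which 1 was called lower (LIF) and 1 higher (IL11). IL11 reached the count limit only through the MAPKi libraries, where it was high, so that its call is given as a description. Over all 15975 genes tested, 17.6% were called lower and 16.1% higher. In the Gln experiment 4 members were tested (LIF, IL11, CXCL8 and CXCL1), of which 2 were called higher and 0 lower (0 also at an unadjusted p under 0.05 and with DESeq2), against 3.21% higher and 1.65% lower among all 15900 genes tested. Libraries of the same number deviated together in this experiment, and with the replicate number as a block 3 members were higher and 0 lower, against 8.41% higher and 6.33% lower among all genes tested. The median log2 fold change of all genes tested was -0.00125 with MAPKi and 0.0172 with Gln depletion.

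LIF mRNA fell under MAPKi and rose under Gln depletion. LIF (leukaemia inhibitory factor) is a gp130 cytokine known for keeping stem cells undifferentiated and for its part in muscle wasting and inflammation. The gene lies at chr22:30240453-30246759 on the minus strand (GRCh38), with 3 exons coding for 202 residues. Its counts were 1887, 2163 and 1801 reads in the 3 DMSO libraries and 156, 147 and 187 reads in the 3 MAPKi libraries. Every MAPKi library was far below every DMSO library. On the TMM scale the level decreased from 56.3 ± 6.04 to 4.63 ± 0.125 CPM (SD, n = 3), which was 12.1-fold lower (log2 fold change -3.60, SE 0.09, edgeR adjusted p = 2.54e-08). The DMSO libraries were between 10.5 and 13.2 times above the MAPKi library of the same number.

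In the Gln experiment LIF had 3485, 4110 and 6072 reads in CTRL libraries 1 to 3 and 15978, 27892 and 11144 reads in Gln-depleted libraries 1 to 3. The groups did not overlap, and library 2 was the highest of the Gln-depleted ones. The level increased from 117 ± 28.6 to 526 ± 200 CPM (SD, n = 3), which was 4.49-fold higher (log2 fold change 2.17, SE 0.32, edgeR adjusted p = 0.0139). The rise was 4.91-fold in the pair of experimental batch 1 and 6.94- and 2.45-fold in the pairs of batch 2, and within batch 2 the log2 fold change was 2.12 (adjusted p = 0.0306). The call was lost when CTRL replicate 2 was left out (log2 fold change 2.11, edgeR adjusted p = 0.068). The antisense gene LIF-AS2 overlaps LIF, and had 1 to 5 reads in MAPKi, 21 to 30 in DMSO, 23 to 43 in CTRL and 50 to 135 in Gln-depleted libraries. Whether counting used the strand is not given in the sources used here, and without it reads of both genes cannot be told apart.

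IL11 showed the largest fitted change of the tested members, a rise under Gln depletion. IL-11 is a gp130 cytokine known for its role in fibrosis and in the growth of blood platelets' precursors. The gene lies at chr19:55364382-55370463 on the minus strand, with 5 exons in its main transcript. Its counts were 12, 13 and 9 reads in CTRL libraries and 912, 2392 and 454 reads in Gln-depleted libraries 1 to 3. The groups did not overlap, and the order of the Gln-depleted libraries was that seen for LIF. The level increased from 0.296 ± 0.0652 to 35.2 ± 25.9 CPM (SD, n = 3), 118-fold higher, with a log2 fold change of 6.89 (SE 0.65, 95% interval 5.40 to 8.38, edgeR adjusted p = 0.00254). The pairs rose 81.4-fold in experimental batch 1 and 188- and 67.4-fold in batch 2, where the log2 fold change was 7.13 (edgeR adjusted p = 0.0107). Without Gln-depleted replicate 2, the highest library, it was 6.11 (SE 0.41, edgeR adjusted p = 0.00432).

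Under MAPKi, IL11 had 15, 17 and 17 reads against 6, 4 and 5 reads in DMSO libraries. These groups also did not overlap, at a level that was low in both. The means were 0.467 ± 0.0604 and 0.145 ± 0.0353 CPM (SD, n = 3), a log2 fold change of 1.67 (SE 0.38). The mean normalised count of 10.7 was past the limit of 10 only through the MAPKi libraries, so that the adjusted p of 0.0163 (edgeR) is no support for the change. In a test of all genes with at least 2 reads, a limit that the DMSO libraries alone passed, IL11 was called (edgeR adjusted p = 0.0154). At the limit of 10 the call was lost with DESeq2 (adjusted p = 0.249), in a fit of all 12 libraries (edgeR adjusted p = 0.114), with a replicate block (edgeR adjusted p = 0.0529) and when DMSO replicate 2 was left out (edgeR adjusted p = 0.0522). When any 1 of the 3 MAPKi libraries was left out, the gene fell under the count limit and was not tested.

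CXCL8 was the most abundant chemokine of the members in Gln-depleted cells and was counted once in the 3 MAPKi libraries. The gene lies at chr4:73740519-73743716 on the plus strand, with 4 exons in its main transcript. Its counts were 9, 14 and 13 reads in DMSO and 0, 1 and 0 reads in MAPKi libraries. With 1 read against 36, the sum over DMSO libraries, scaled to equal depth, was 36.5 times that of MAPKi libraries, with a 95% exact counting interval from 6.15 to 1482. Counting intervals cover counting error only. The mean normalised count of 6.20 left CXCL8 out of the test. When all genes with at least 2 reads were tested, its log2 fold change was -4.73 (SE 0.85, edgeR adjusted p = 0.000966), a value that depends on how counts of 0 are treated. CXCL8 passed this limit only through the DMSO libraries, where it was higher, so that this p is no support for the change.

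Gln-depleted libraries 1 to 3 had 86, 211 and 76 CXCL8 reads and CTRL libraries 26, 53 and 59. The lowest Gln-depleted library was above the highest CTRL library. The means were 3.56 ± 1.84 and 1.18 ± 0.417 CPM (SD, n = 3). The log2 fold change of 1.59 (SE 0.46, 95% interval 0.52 to 2.65) was not called against the 1.5-fold limit (edgeR adjusted p = 0.15). It was called with the replicate number as a block (log2 fold change 1.54, SE 0.33, edgeR adjusted p = 0.0416) and with a term for the experimental batch (1.62, SE 0.35, edgeR adjusted p = 0.0406), and not within experimental batch 2 (1.52, edgeR adjusted p = 0.137) or with DESeq2 (1.60, adjusted p = 0.393). The ratio was 3.54 in the pair of experimental batch 1, and 4.07 and 1.72 in those of batch 2.

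CXCL1, a chemokine that acts on CXCR2, was called in neither experiment. The gene lies at chr4:73869393-73871308 on the plus strand. It had 18, 8 and 7 reads in MAPKi libraries against 18, 11 and 14 in DMSO libraries, and 18, 29 and 25 reads in Gln-depleted libraries against 34, 29 and 30 in CTRL libraries. The TMM-scaled levels of the groups overlapped in both experiments. The log2 fold change was -0.39 with MAPKi (95% interval -1.47 to 0.68, edgeR adjusted p = 0.981) and -0.19 with Gln depletion (95% interval -1.02 to 0.64, edgeR adjusted p = 0.999), intervals that still hold changes past 1.5-fold.

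CXCL2 and CXCL3 lie on the minus strand of the same chromosome, at chr4:74097040-74099196 and chr4:74036589-74038807, and neither reached the count limit. CXCL3 had 3, 21 and 18 reads in Gln-depleted libraries 1 to 3 and 2, 4 and 8 in CTRL libraries, a ratio of reads summed and scaled to equal depth of 3.40 (95% exact counting interval 1.82 to 6.74). Both Gln-depleted libraries of experimental batch 2 were above every CTRL library and that of batch 1 was not. With MAPKi, CXCL3 had 2, 3 and 2 reads against 2, 10 and 7 with DMSO. CXCL2 had 1 to 6 reads in every library, with 14 reads in all in Gln-depleted and 6 in CTRL libraries (ratio 2.64, interval 0.954 to 8.39), and 9 reads in both MAPKi and DMSO. Its Gln-depleted libraries (4, 6 and 4 reads) were all above its CTRL libraries (1, 3 and 2 reads) on the TMM scale, at counts of a few reads. In a test of all genes with at least 2 reads, CXCL3 was not called with MAPKi (edgeR adjusted p = 0.296) or Gln depletion (edgeR adjusted p = 0.345), nor was CXCL2. The coding sequences of CXCL1 and CXCL2 were 93.5% identical, those of CXCL1 and CXCL3 90.7% and those of CXCL2 and CXCL3 94.4%, while each was between 55.3% and 56.7% identical to that of CXCL8. No stretch of 100 bases was shared by the main transcripts of any pair, but reads of the 3 near-copies may have been split in counting.

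The remaining inflammatory members were at or near the limit of detection. CCL2 (chr17:34255274-34257208, plus strand) had 0 reads in all 12 libraries. IL1A (chr2:112773925-112784493, minus strand) had 1 read, in DMSO library 2. IL1B (chr2:112829751-112836816, minus strand), the secreted IL-1 that needs cleavage by caspase-1, had 0 to 2 reads per library, with 4 reads in MAPKi, 4 in DMSO, 4 in Gln-depleted and 1 in CTRL libraries. IL6 (chr7:22725884-22732002, plus strand), the acute-phase cytokine, had 0, 0 and 1 reads with MAPKi against 4, 0 and 2 with DMSO, and 0, 0 and 3 in Gln-depleted against 2, 2 and 3 in CTRL libraries, and it overlaps STEAP1B, which had 509 to 1207 reads per library. No difference in these 4 mRNAs was detectable at this depth.

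**Figure D2:**
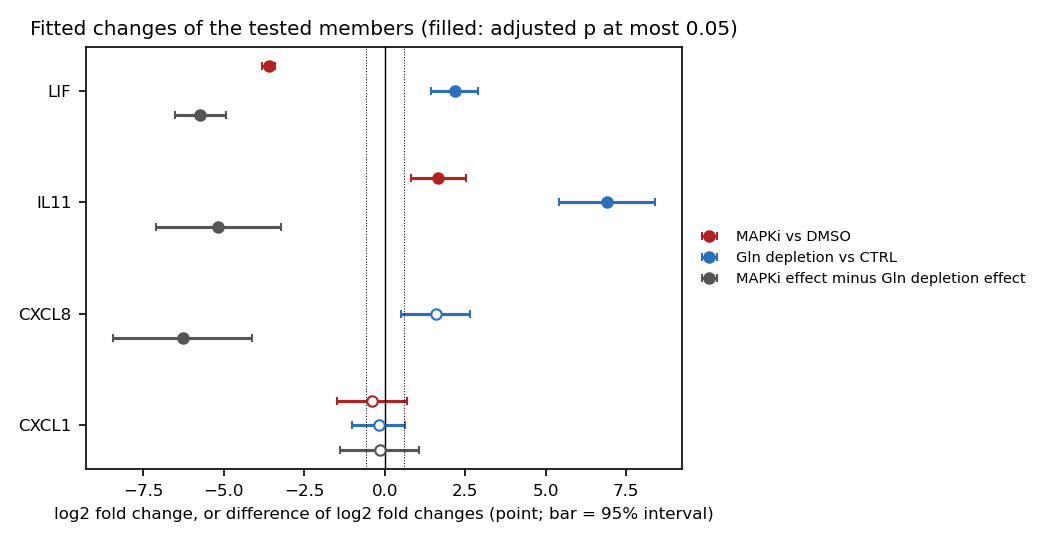
Log2 fold changes of the 4 members tested in at least 1 comparison (y axis), with 95% intervals from edgeR as bars (x axis, log2 scale). Filled points have an adjusted p of at most 0.05, dotted lines mark a 1.5-fold change, and grey points give the MAPKi effect minus the Gln depletion effect. Grey points were tested against no difference, the others against a 1.5-fold change. The filled IL11 point under MAPKi passed the count limit only through the MAPKi libraries, so that its filling is no support. The filled CXCL8 difference rests on 1 MAPKi read. LIF lies on opposite sides of 0 in the 2 experiments, IL11 lies above 0 in both, and all 3 points of CXCL1 are open and near 0.

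The effects of MAPKi and Gln depletion were then compared in 1 model over the 12 libraries, in which the experiments share no control library. The MAPKi effect was lower than the Gln depletion effect for 3 of the 4 members tested, LIF, IL11 and CXCL8. Among all 16072 genes tested in this way, 18.9% differed in that direction and 17.2% in the other, by edgeR's quasi-likelihood test against no difference. The difference was -5.72 on the log2 scale for LIF (SE 0.36, edgeR adjusted p = 7.43e-07), whose level moved in opposite directions. For IL11 it was -5.17 (SE 0.88, edgeR adjusted p = 0.000873), and -4.41 without Gln-depleted replicate 2. Its MAPKi change rests on few reads and lost its call under several settings, as given above. For CXCL8 it was -6.27 (SE 0.99, edgeR adjusted p = 0.000309), a size that rests on 1 MAPKi read. CXCL8 was under the count limit in the MAPKi experiment and entered this test through the CTRL and Gln-depleted libraries, where it was higher. Without MAPKi replicate 2 no MAPKi read is left, and the fitted difference of -8.17 has no usable SE. For CXCL1 it was -0.16 (95% interval -1.39 to 1.08, edgeR adjusted p = 0.851).

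LIF, IL11 and CXCL8 were each highest in Gln-depleted library 2 on the TMM scale (751, 64.4 and 5.68 CPM, in that order of genes). The summed level of 9 amino acid response genes was 3802, 3979 and 3438 CPM in Gln-depleted libraries 1 to 3, against 568, 630 and 465 in CTRL libraries, and its part in the members' levels was not tested. After subtraction of each experiment's mean, Pearson's r of log2(CPM + 0.5) over the 12 libraries was 0.824 between CXCL8 and LIF, 0.747 between CXCL8 and IL11 and 0.432 between LIF and IL11. These are descriptions over libraries that share treatments. The added 0.5 CPM was above the mean levels of CXCL8 and IL11 in MAPKi and DMSO cells, so that their MAPKi changes were compressed in r. Among genes with a mean normalised count of at least 100, the 5 most like CXCL8 on this scale were DCBLD2, TARS1 (the cytosolic threonyl-tRNA synthetase), ZNF562, PPP2R5A and AGO2, with r from 0.966 to 0.979. Their log2 fold changes with MAPKi were only -0.25 to -0.66, against -4.73 for CXCL8 when all genes with at least 2 reads were tested. With Gln depletion they were 0.60 to 1.34, against 1.59 for CXCL8. The 5 most like LIF, which were looked up after the values were seen, were GPAT3, SH3KBP1, CCND1, EGR3 and AMIGO2, with r from 0.988 to 0.991.

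The receptors through which the members act were measured in the same cells. The counts of this and the following lists stand beside 17.6% lower and 16.1% higher among all genes under MAPKi and 1.65% and 3.21% under Gln depletion. Of 14 receptor genes and antagonists, 9 were tested with MAPKi, of which 1 was lower and 2 higher (median log2 fold change 0.51), and 8 with Gln depletion, of which 0 were called by edgeR (2 lower at an unadjusted p under 0.05, 0 called with DESeq2, median -0.15). IL1RAP, the partner chain of the IL-1 receptor, fell under MAPKi from 325 ± 22.9 to 51.1 ± 6.99 CPM (log2 fold change -2.67, SE 0.10, edgeR adjusted p = 1.87e-07). With Gln depletion its log2 fold change was 1.12 (edgeR adjusted p = 0.288). IL11RA, the receptor specific to IL-11, rose under MAPKi from 7.28 ± 0.687 to 25.5 ± 5.35 CPM (log2 fold change 1.81, SE 0.15, edgeR adjusted p = 5.39e-05), and its log2 fold change with Gln depletion was -0.93 (edgeR adjusted p = 0.255). ACKR2, a decoy receptor that takes up CC chemokines, was called higher under MAPKi, from 0.164 to 1.30 CPM (log2 fold change 2.97). It reached the count limit only through the MAPKi libraries, where it was high, so that its adjusted p of 2.86e-05 (edgeR) is no support for the change.

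The signalling receptor gp130 (IL6ST) was not called, with log2 fold changes of 0.71 under MAPKi (edgeR adjusted p = 0.0559) and 1.14 under Gln depletion (edgeR adjusted p = 0.492). LIFR had log2 fold changes of -0.14 and -0.23 and the related OSMR 0.11 and -0.07, in the same order. IL6R had 0.51 and -1.03, IL1R1 had 0.61 and 0.60, and the decoy IL1R2 -0.22 and -0.73, none of them called. The chemokine receptors were scarcely read. CXCR1, ACKR1 and the IL-1 antagonist IL1RN had 0 reads in every library, CXCR2 at most 3 reads in a library, and CCR2 at most 9.

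Other secreted factors included further gp130 and immune ligands. Of 25 other cytokines, 9 were tested in each experiment, with 1 lower and 2 higher under MAPKi (median log2 fold change -0.16), beside 17.6% lower and 16.1% higher among all genes, and 3 higher and 0 lower under Gln depletion (0 lower also at an unadjusted p under 0.05 and with DESeq2, median 0.19). CLCF1, a gp130 cytokine, rose in both, by 2.23 on the log2 scale with MAPKi (edgeR adjusted p = 3.16e-05) and by 2.55 with Gln depletion (edgeR adjusted p = 0.00776). With Gln depletion IL24, a cytokine of the IL-10 family, rose from 149 ± 44.4 to 779 ± 461 CPM (SD, n = 3, log2 fold change 2.38, edgeR adjusted p = 0.0301). TSLP, an epithelial cytokine of allergic inflammation, rose by 2.93 on the log2 scale with Gln depletion. With MAPKi CSF1, the macrophage growth factor, rose by 1.62. IL12A, a subunit of IL-12, was called lower (log2 fold change -2.90), from 0.518 to 0.0657 CPM and with at most 24 reads in a library. It reached the count limit only through the DMSO libraries, where it was higher, so that its call is given as a description. TNF and CSF2 had 0 reads in all libraries.

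Of 15 other chemokines, 3 were tested with MAPKi and 1 was higher, CCL28 (log2 fold change 1.71, edgeR adjusted p = 8.12e-07), with a median of 0.16 over those tested. With Gln depletion 4 were tested and 1 was higher, CX3CL1 (fractalkine, log2 fold change 1.59, edgeR adjusted p = 0.0355), with a median of 0.305. CXCL5, CXCL6 and PPBP, the near relatives of CXCL1 and CXCL8, had 0 reads in all 12 libraries.

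The lists of regulators were read beside the members. Of 13 NF-κB core genes tested, 1 was lower (NFKB2) and 2 were higher (NFKBIA, the inhibitor IκBα, by 1.48, and BCL3 by 1.35 on the log2 scale) under MAPKi, and 1 was higher under Gln depletion (RELB, by 1.24), with medians of 0.05 and 0.17. With DESeq2, 1 was lower and 2 were higher under MAPKi, and 0 were higher under Gln depletion. Of the NF-κB feedback and target genes, 2 of 11 were lower (TNFAIP3 and ICAM1) and 2 higher (TNFAIP2 and SOD2) under MAPKi, and 1 of 12 was higher under Gln depletion (PTGS2, the inducible cyclooxygenase, by 2.59), with medians of 0.0038 and -0.10. DESeq2 called 1 lower and 2 higher under MAPKi and 1 higher under Gln depletion. Of 8 C/EBP and stress factors, 2 were lower (CEBPG and ATF4) and 2 higher (CEBPA and ATF3) under MAPKi, with a median of 0.09. With DESeq2, 0 of these 8 were called lower and 1 higher under MAPKi. Under Gln depletion 5 of the 8 were higher, with a median of 1.86. Among them DDIT3 (CHOP) rose by 2.71, ATF3 by 2.64 and CEBPG by 2.45 on the log2 scale, while CEBPD was lower (log2 fold change -2.62, edgeR adjusted p = 0.0228). ATF3 was thus called higher by edgeR in both experiments.

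Of the 11 cytokine mRNA decay factors, 3 were lower and 2 higher under MAPKi (median -0.20), and 1 was lower and 1 higher under Gln depletion (median -0.05). DESeq2 called 2 lower and 1 higher under MAPKi, and 1 lower and 0 higher under Gln depletion. HNRNPD (AUF1), which binds AU-rich elements, was lower in both, with log2 fold changes of -1.20 and -1.25. ZC3H12A (Regnase-1), which cleaves cytokine mRNAs, rose by 0.96 on the log2 scale under MAPKi, and ZFP36L1, which promotes decay of AU-rich mRNAs, by 1.16 under Gln depletion. Of the gp130 and IL-1 signal transduction genes, 2 of 17 were lower and 2 higher under MAPKi (median 0.385), with STAT3 rising by 1.03 and IRAK4 by 1.11. With DESeq2, 1 was lower and 2 were higher under MAPKi. Of 18 tested under Gln depletion 0 were called (edgeR, 1 lower at an unadjusted p under 0.05, 0 called with DESeq2, median -0.06), where SOCS3 had a log2 fold change of -1.23 (edgeR adjusted p = 0.156). Of the IL-1 maturation and inflammasome genes, 3 of 9 were higher under MAPKi (NLRP1, AIM2 and CAPN1, median 0.41) and 0 of 8 were called under Gln depletion (edgeR, 0 also at an unadjusted p under 0.05 and with DESeq2, median -0.26). Under MAPKi DESeq2 called 2 of this list higher and 0 lower. CASP1 had at most 2 reads in a library.

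Genes known to answer to each treatment were read in the same libraries. All 10 genes of the MAPK pathway output were lower under MAPKi (median log2 fold change -4.64), with DUSP6 at -9.53 and SPRY4 at -7.46. DUSP6 reached the count limit through the DMSO libraries, at 129 CPM against 0.171 under MAPKi. Under Gln depletion 2 of the 10 were higher (median 0.75), CCND1 by 1.95 and FOSL1, an AP-1 subunit, by 2.24. Of the amino acid response genes, 6 of 8 tested were higher under Gln depletion (median 2.37), with SLC7A11 at 3.51 and CHAC1 at 3.34, and 5 of 8 were lower and 1 higher under MAPKi (median -1.15). DESeq2 called 7 higher under Gln depletion, and 5 lower and 0 higher under MAPKi.

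**Figure D3:**
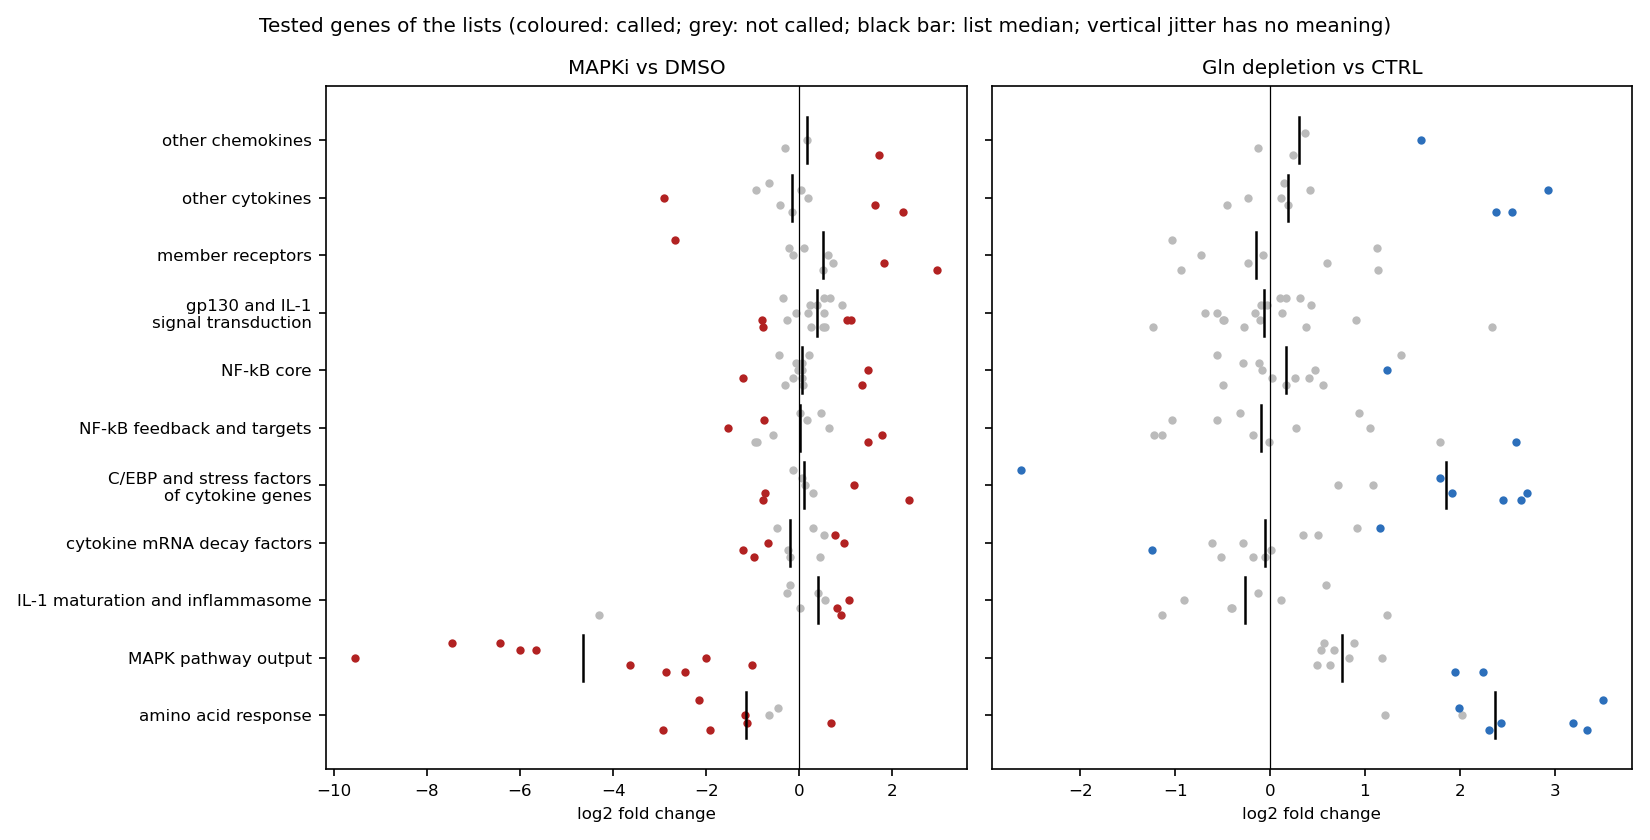
Log2 fold changes (x axis) of the tested genes of each list (y axis) under MAPKi (left) and Gln depletion (right). Each point is 1 gene, coloured where it was called and grey where it was not, the black bar is the median of the list, and the vertical spread within a list has no meaning. The MAPK pathway output lies wholly below 0 on the left (median -4.64), and the amino acid response (median 2.37) and C/EBP lists (median 1.86) lie mostly above 0 on the right.

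Markers of the cell type were checked because leukocytes, fibroblasts and other cells are rich sources of these cytokines. All 8 melanocyte lineage genes were detected in every group, and 6 of them were higher and 1 lower under MAPKi. Their summed level there, TMM-scaled over the 12 libraries as are the sums below, was 8686 to 11000 CPM against 1308 to 1401 with DMSO. Most of that difference was DCT, a pigment enzyme, at 7830 ± 1279 CPM against 201 ± 39.1 (SD, n = 3). The summed level was 649 to 739 in Gln-depleted and 1022 to 1238 in CTRL libraries, with 1 of 7 lower. Of 4 neural crest genes, 2 were higher and 1 lower under MAPKi and 0 were called under Gln depletion (edgeR, 2 higher at an unadjusted p under 0.05, 1 higher with DESeq2). The 8 leukocyte genes summed to 392 to 404 CPM with MAPKi, 54.6 to 64.6 with DMSO, 38.0 to 59.0 with CTRL and 25.7 to 38.1 in Gln-depleted libraries, nearly all of it CD68, a lysosomal gene that was higher under MAPKi and not called under Gln depletion. CD3E and MS4A1 were at 0 reads in all libraries and PTPRC (CD45) had at most 17. The 5 fibroblast genes summed to 13.5 to 28.1 CPM over all libraries, with 1 lower and 1 higher of 3 under Gln depletion and 0 of 3 called under MAPKi (edgeR, 1 higher at an unadjusted p under 0.05, 0 with DESeq2). The 4 endothelial genes summed to 4.39 to 10.3 CPM, nearly all of it VWF and KDR, with PECAM1 and CDH5 at no more than 1 read in a library. Under MAPKi VWF was higher (4.67 to 8.56 CPM, not called with DESeq2) and KDR lower (3.88 to 0.168 CPM). KDR reached the count limit there only through the DMSO libraries. Under Gln depletion 0 of 2 were called (edgeR, 1 lower at an unadjusted p under 0.05, 0 with DESeq2). The 4 keratinocyte genes summed to at most 0.681 CPM, with KRT5 and DSG3 at 0. TP63 was called higher under MAPKi by edgeR (0.116 to 0.482 CPM) and not with DESeq2. It reached the count limit only through the MAPKi libraries, so that its call is given as a description. The part of these differences in the members' levels was not tested.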

How the data were processed

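The deposited table holds raw counts of reads per gene, which the authors made by trimming with fastp 0.20.1, aligning with HISAT2 2.2.1 to GRCh38.p13 and counting with htseq-count (HTSeq 0.13.5, NCBI annotation). The labels describe cytoplasmic RNA from a Triton lysate, the paper's RNA-seq section total RNA. Every column was used. Depth was 31056296 to 40071368 reads per library (median 35748567), so that counting limits the rare members and the spread between libraries the abundant ones.

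Each experiment was fitted on its own in R 4.3.3, with the quasi-likelihood model of edgeR 4.0.16, TMM scaling and no term beside the treatment, over all genes with a mean normalised count of at least 10, against a 1.5-fold change at an adjusted p of at most 0.05. The difference between effects was tested against none over 12 libraries. Ratios of summed reads have 95% exact binomial intervals. Loci and exon lengths were taken from GENCODE (GRCh38) and promoters from RefSeq (GRCh38.p14), with Python 3.11.15 and Biopython 1.88, and figures were drawn with matplotlib 3.10.9. Scripts were tested on simulated data.

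The members, gene lists and tests were chosen with earlier results of these data known. The genes named are the 10 members, all their receptors, and at most the 4 called genes of largest change per list and experiment, and the 5 genes most like CXCL8. Genes named outside this rule, chosen after their values were seen, are TNF, CSF2, CXCL5, CXCL6, PPBP, SOCS3, CASP1, LIF-AS2, STEAP1B, the genes most like LIF and the markers.

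Libraries with the same number deviated together in the Gln experiment, where the labels also give the experimental batch (correlations of deviations 0.58, 0.455 and 0.429). Alternatives were DESeq2 1.42.0 or its size factors, genes with at least 2 reads or a mean of at least 100, no fold-change threshold, a fit of all 12 libraries, protein-coding genes only, a replicate block, an experimental batch term, experimental batch 2 only, and leaving out each library.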

Additional observations from a re-analysis of the deposited data

Results flagged for a closer look

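The MAPKi effect and the Gln depletion effect differed for 3 members in a test of the difference over 12 libraries (edgeR's quasi-likelihood test). Of all 16072 genes tested, 18.9% had a lower MAPKi effect, as these 3 did, and 17.2% a higher one. For LIF the MAPKi effect minus the Gln depletion effect was -5.72 on the log2 scale (SE 0.36, edgeR adjusted p = 7.43e-07), with all 3 MAPKi libraries below DMSO and all 3 Gln-depleted libraries above CTRL. For IL11 it was -5.17 (SE 0.88, edgeR adjusted p = 0.000873), with 3 of 3 treated libraries above the controls in both experiments. The MAPKi change of IL11 rests on few reads and lost its call under several settings, and without Gln-depleted replicate 2 the difference was -4.41. For CXCL8 it was -6.27 (SE 0.99, edgeR adjusted p = 0.000309), with all 3 MAPKi libraries below DMSO at 0 or 1 read and all 3 Gln-depleted libraries above CTRL. CXCL8 was under the count limit in the MAPKi experiment and was tested here through the reads of the Gln experiment, and without MAPKi replicate 2, which holds the 1 MAPKi read, the fitted difference of -8.17 has no usable SE. The experiments were sequenced in different batches, and the batch cannot be told apart from the experiment.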

How the results depend on the processing

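LIF under MAPKi, IL11 under Gln depletion and the differences of LIF, IL11 and CXCL8 between experiments kept their direction and call under every alternative in which they were tested, although the difference of CXCL8 rests on 1 MAPKi read. Without Gln-depleted replicate 2 the log2 fold change of IL11 under Gln depletion was 6.11 and its difference -4.41, and without MAPKi replicate 2 the difference of CXCL8 was -8.17. Without a fold-change threshold 5742 genes were lower and 5723 higher under MAPKi, and 1106 and 1406 under Gln depletion. For Gln depletion, 1032 genes were lower and 1079 higher in the fit of all 12 libraries, 905 and 1226 with the experimental batch term, and 617 and 803 in experimental batch 2 alone. With genes of at least 2 reads tested, 2 members were lower under MAPKi, CXCL8 being added, which passed that limit only through its DMSO reads. At that setting 2978 of all 24782 genes tested were lower. The number of members higher under MAPKi was 0 with DESeq2, in the fit of all 12 libraries, with the replicate block and with a mean count of at least 100, where IL11 was not tested. CXCL1 under Gln depletion changed sign to 0.0937 in experimental batch 2 alone.

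The replicate block gave 1006 genes lower and 1337 higher under Gln depletion, in place of 262 and 510, and added CXCL8 to the members called. Under MAPKi libraries of the same number did not deviate together (correlations 0.0367, 0.0403 and -0.00942) and share only a number. There the block gave an adjusted p of 0.0529 for IL11 (edgeR), and it changed no other call of a member.

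Leaving out 1 library at a time gave 2568 to 2726 genes lower and 2397 to 2574 higher under MAPKi, with 0 to 1 members higher. It gave 61 to 414 lower and 208 to 573 higher under Gln depletion (61 and 208 without CTRL replicate 2, 64 and 226 without Gln-depleted replicate 2, 85 and 217 without CTRL replicate 3, 145 and 336 without Gln-depleted replicate 3, 414 lower without Gln-depleted replicate 1), with 1 to 2 members higher. The difference of CXCL1 ranged from -0.72 to 0.13, with its sign changed to 0.13 without MAPKi replicate 3 and to 0.09 without DMSO replicate 1. The causes were not tested.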
